A study of Homo sapiens with 6 samples.

Results

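In 22Rv1 cells, a prostate cancer cell line, 8 genes had lower mean RNA after repeated phleomycin exposure than in either unexposed group. They are SMOC1, CORO1A, PLA2G3, LEPREL1, LINC00668, NEDD4L, ANXA6 and ATP1B3. For LEPREL1 and LINC00668, 72.1% and 66.6% of the log2 fall from parental cells was already present in age-matched cells without drug. The SMOC1 libraries of exposed and parental cells overlapped. The 8 genes were chosen for lower counts in the exposed cells, outside the endoplasmic reticulum (ER) chaperones and the enzymes of sterol synthesis. They make up 8 of the 29804 genes listed. All 8 were among the 14672 genes that passed edgeR's expression filter. None of the 8 is in the lists of 22 ER genes and 23 sterol genes used here. The first, called the ER chaperone list below, also holds genes of ER-associated degradation such as SEL1L, SYVN1 and DERL1. LEPREL1 is on neither list, although the collagen-modifying enzyme that it encodes is itself resident in the ER.

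RNA-seq covered 3 groups, with 2 libraries in each. The WT group was parental cells taken at week 0 with no drug, and AM cells were age-matched cells grown for 6 weeks without drug. 6WP cells were given 1 µg/ml of phleomycin, a radiomimetic that breaks DNA, on each week day over the same 6 weeks. AM and WT therefore differ in time in culture, 6WP and WT differ in both time and drug, and only 6WP and AM share their time in culture. The labels give no day of harvest, so any difference in it between AM and WT cannot be told apart from time in culture. All libraries come from 1 cell line, and the 6WP cells are those that outlived the exposure. Library totals lay between 21222201 and 35311945 counts, and 3 counts, taken as the lowest detectable amount, equal 0.0883 to 0.138 CPM (TMM-normalized counts scaled to library size). These floors cover counting error only. Replicates differed least in WT (median SD over genes of log2 CPM 0.0854) and AM (0.0911) and most in 6WP (0.196). All 10 luminal prostate markers passed the filter, with summed levels of 2982 to 3137 CPM in WT, 1934 to 2286 CPM in AM and 2468 to 3455 CPM in 6WP libraries.

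As background, the genes belong to different systems. SMOC1 and PLA2G3 encode secreted proteins, a calcium-binding matrix glycoprotein of the SPARC family that modulates BMP signalling, and a phospholipase A2 that frees fatty acids such as arachidonate from phospholipids. CORO1A (an actin-binding coronin that works with the Arp2/3 complex), ANXA6 (a calcium-dependent membrane-binding annexin) and ATP1B3 (a beta subunit of the sodium-potassium pump) act at the cell cortex and membrane. LEPREL1 encodes a prolyl 3-hydroxylase of collagen, NEDD4L a HECT-type ubiquitin ligase that removes membrane proteins such as the epithelial sodium channel, and LINC00668 is a long intergenic non-coding RNA.

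The 8 genes did not share 1 course over the 3 groups. In SMOC1, CORO1A, PLA2G3, ANXA6 and ATP1B3, AM was above WT and 6WP was below AM. In LEPREL1, LINC00668 and NEDD4L, AM was already below WT and 6WP was lower again. Both 6WP libraries lay below both AM libraries for all 8 genes, and below both WT libraries for all but SMOC1, which overlapped WT. The 6WP levels made the choice, so this only describes it. In bulk RNA, fewer cells with a transcript and less of it per cell cannot be told apart.

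**Figure D1:**
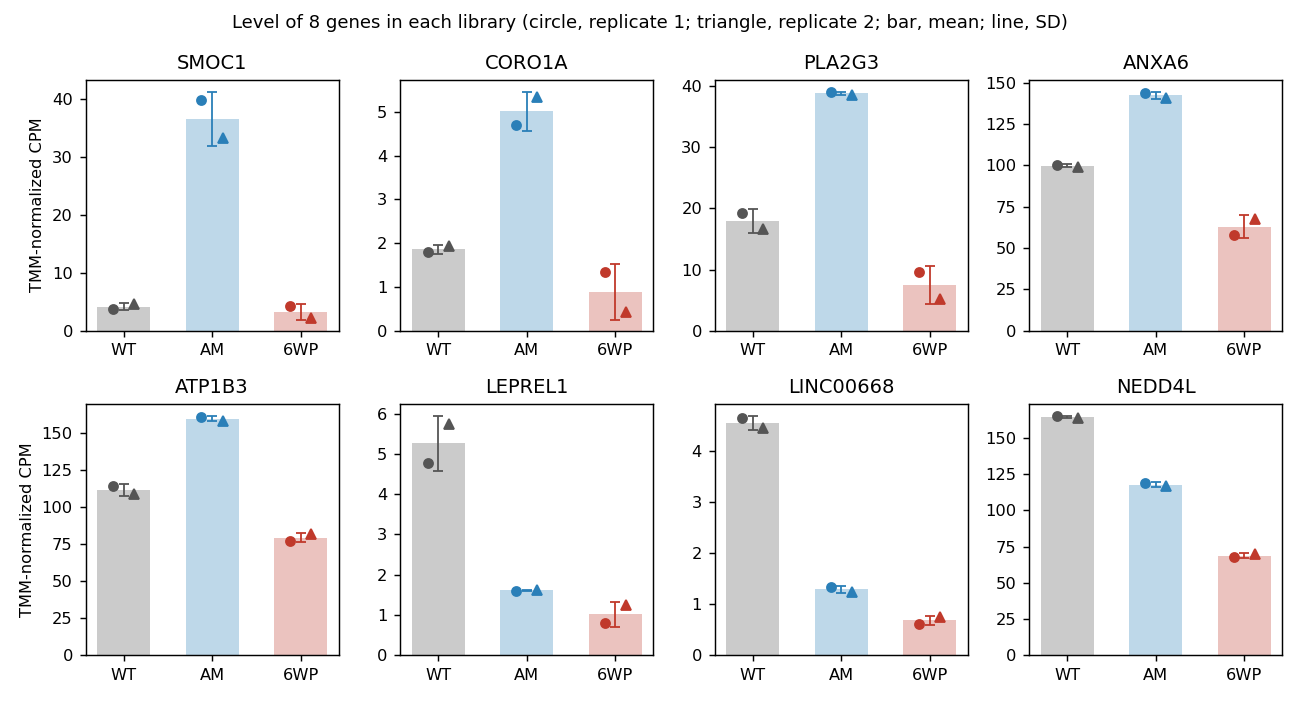
Level of each of the 8 genes in every library, in CPM on linear axes that start at 0, with WT, AM and 6WP side by side. Each point is 1 library, bars are group means and lines are SD over 2 libraries. SMOC1 stood at 39.9 and 33.2 CPM in AM and below 5 CPM in the other 4 libraries, while LEPREL1, LINC00668 and NEDD4L stepped down from WT through AM to 6WP.

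Among the promoters, the 250 bases before the start site are shown for the pairs of genes whose levels were most alike over the 6 libraries within each course, ANXA6 with ATP1B3 (Pearson's r of log2 CPM 0.992) and LEPREL1 with LINC00668 (0.988). These r are descriptions, since the 6 points are 3 groups of 2 and all 8 genes were picked on the same libraries. The sequences are from RefSeq (GRCh38.p14), which matched 7 of the 8 genes, all but PLA2G3, and each is written 5′ to 3′ on the strand of its gene. Capitals mark the CCAAT box and the GC box (GGGCGG), and a box on the opposite strand appears as its reverse complement. The windows are chr5:151157780-151158029 (minus strand) for ANXA6, chr3:141876393-141876642 (plus) for ATP1B3, chr3:190122279-190122528 (minus) for LEPREL1 and chr18:6929870-6930119 (minus) for LINC00668.
ANXA6: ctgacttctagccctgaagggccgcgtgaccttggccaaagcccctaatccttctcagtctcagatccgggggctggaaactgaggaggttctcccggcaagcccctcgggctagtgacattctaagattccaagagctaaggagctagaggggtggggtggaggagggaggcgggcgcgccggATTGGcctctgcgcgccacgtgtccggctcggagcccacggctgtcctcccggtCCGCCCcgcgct
ATP1B3: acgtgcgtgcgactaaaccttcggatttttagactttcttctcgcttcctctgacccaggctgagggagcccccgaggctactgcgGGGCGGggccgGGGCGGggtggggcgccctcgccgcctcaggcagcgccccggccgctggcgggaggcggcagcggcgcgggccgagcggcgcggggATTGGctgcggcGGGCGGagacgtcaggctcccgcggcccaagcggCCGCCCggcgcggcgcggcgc
LEPREL1: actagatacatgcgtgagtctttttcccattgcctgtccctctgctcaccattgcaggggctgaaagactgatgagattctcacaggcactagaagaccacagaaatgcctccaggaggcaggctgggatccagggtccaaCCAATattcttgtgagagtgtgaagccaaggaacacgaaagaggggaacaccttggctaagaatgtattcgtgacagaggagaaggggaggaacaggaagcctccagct
LINC00668: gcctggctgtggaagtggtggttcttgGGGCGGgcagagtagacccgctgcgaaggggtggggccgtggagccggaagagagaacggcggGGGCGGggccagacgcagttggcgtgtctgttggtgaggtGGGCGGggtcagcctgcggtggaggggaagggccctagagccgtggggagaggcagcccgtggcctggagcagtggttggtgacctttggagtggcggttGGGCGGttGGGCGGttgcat

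ANXA6 and ATP1B3 both had a CCAAT box on the opposite strand, 66 and 67 bases before the start, and both were rich in G and C (65.6% and 77.2%, against a median of 58.0% over 35116 promoters of the same length). A CCAAT box that began 50 to 100 bases before the start was present in 13.1% of those promoters. LEPREL1 had its CCAAT box 109 bases before the start, no GC box, and a GC content of 51.2%, whereas LINC00668 had no CCAAT box and 5 GC boxes. The genes with the most similar stepwise fall thus had unlike promoter sequences in these windows. Searched on both strands, CCAAT was found in 5 of the 7 promoters against 32.0% of all, and GGGCGG in 5 of 7 against 42.6%. The ER stress element (CCAAT, any 9 bases, then CCACG), which overlaps the CCAAT box by its first letters, was found in 0 of 7 and in 0.074% of all. The AP-1 site TGACTCA (4.20% of all), the CRE TGACGTCA (1.65%) and the ATF4-type site TGATGCAAT (0.216%) were also found in 0 of 7. Only the first listed RefSeq start of each gene was searched. The windows of all 7 genes lie wholly or partly inside the gene positions given below, so other start sites were not covered. Distances to the start hold only for the start that was searched. A match is a description of letters and not a measured binding site.

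The choice of the 8 genes used 6WP levels, so for these genes the values of 6WP against either control are descriptions and support nothing. Their relatives were tested in all 3 comparisons in the same fit. The fold change of AM against WT compares no 6WP library, and this comparison is tested below. The test is edgeR's quasi-likelihood test with Benjamini-Hochberg adjustment over all 14672 genes. Its estimate of the spread does draw on the 6WP libraries, whose replicates differed most. With all 6 libraries 2593 genes were called in AM against WT, and 6620 in a fit to those 2 groups only. AM against WT is also not fully independent of the choice, because both control groups were references for the falls. A gene picked for a fall from AM tends to be high in AM. Of all tested genes, 7.74% were higher and 9.93% lower in AM than in WT at an adjusted p under 0.05, and of the 8 genes 5 were higher and 3 lower. The median log2 fold change of the 8 genes was 0.52, beside -0.0023 over all tested genes.

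SMOC1, at chromosome 14 (69854131 to 70032366, plus strand, GRCh38), had the widest range. Its level was 3.71 and 4.59 CPM in WT, 39.9 and 33.2 CPM in AM, and 4.23 and 2.22 CPM in 6WP libraries. Both AM libraries stood far above the other 4, and the WT and 6WP libraries overlapped. AM was 8.80-fold above WT (log2 fold change 3.14, SE 0.28, adjusted p = 0.00178). The mean in 6WP was 8.83% of that in AM and 77.7% of that in WT and its fall against AM ranked 5 of 14672. The log2 fold change of 6WP against WT was -0.36 (SE 0.30) and depended on 1 library, being 0.0036 without 6WP replicate 2 and -0.92 without 6WP replicate 1.

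The relatives of SMOC1 took differing courses. Of 3 other SPARC-family genes tested, FSTL1, a secreted follistatin-like protein, was lower in AM than in WT (8.26 against 24.8 CPM, log2 fold change -1.58, adjusted p = 0.00249) and higher in 6WP than in AM (16.0 CPM, 0.95, adjusted p = 0.00790). Both steps were opposite in sign to those of SMOC1, although FSTL1 in 6WP also lay below WT (-0.64, not called). SPOCK2 had the order of SMOC1, with means of 10.7, 17.5 and 9.04 CPM in WT, AM and 6WP, but its AM and 6WP libraries overlapped. SPOCK1 was at 13.5, 7.35 and 8.55 CPM, and neither SPOCK gene was called in any comparison. The closest relative, SMOC2, did not pass the filter. Of 18 genes of BMP signalling, 4 were higher and 1 lower in AM than in WT. The higher genes were ID2 and ID4, transcriptional targets of BMP, with log2 fold changes of 0.86 and 1.00, SMAD7, an inhibitory SMAD, at 0.86, and CHRD, which encodes the BMP-binding protein chordin, at 1.33. BMP2 was lower (-0.58). Against AM, BMP2 was higher in 6WP cells (0.84) and BMP6 was lower (-0.81), while SMAD7 and ID4 stayed above WT in 6WP cells (0.59 and 0.74).

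PLA2G3, at chromosome 22 (31134807 to 31140508, minus strand), was measured at 19.3 and 16.6 CPM in WT, 39.1 and 38.7 CPM in AM, and 9.65 and 5.25 CPM in 6WP libraries. The 3 groups did not overlap, with AM highest and 6WP lowest, and the 6WP libraries lay 0.88 apart on the log2 scale. AM was 2.17-fold above WT (log2 fold change 1.11, SE 0.24, adjusted p = 0.0208), and the mean in 6WP was 19.2% of AM and 41.6% of WT. Of 12 genes listed for secreted phospholipases A2 and their receptor, only PLA2G3, PLA2G12A and PLA2R1 were abundant enough to test. PLA2G12A, another secreted phospholipase A2, was at 60.1, 49.7 and 64.1 CPM in WT, AM and 6WP and was not called in any comparison. PLA2R1, the receptor, was lower in AM than in WT (-2.15, adjusted p = 0.0499) but scarce. It was at 0.491 and 0.643 CPM in WT and 0.172 and 0.0883 CPM in AM libraries, the last at the floor of 3 counts.

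Downstream of phospholipase A2, 9 enzymes of arachidonate metabolism were tested. In AM against WT, 3 were higher and 2 lower, the latter being ALOX15, a lipoxygenase (-1.47), and LTA4H, a hydrolase of the leukotriene pathway (-0.53). Against AM, 6WP cells had less PTGES, the inducible prostaglandin E synthase (-1.21, adjusted p = 0.00546), and less PTGES3 (-0.58), and more ALOX15 (1.15). None of the 9 passed the threshold in 6WP against WT, with edgeR's test.

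CORO1A, at chromosome 16 (30182827 to 30189076, plus strand), had the largest standard error of the 8 genes in AM against WT. Its level was 1.79 and 1.93 CPM in WT, 4.69 and 5.33 CPM in AM, and 1.34 and 0.423 CPM in 6WP libraries, the lowest resting on 12 counts. The groups did not overlap, but the 6WP libraries differed by 1.66 on the log2 scale, the largest gap of any of the 8 genes in any group. AM was 2.70-fold above WT (log2 fold change 1.43, SE 0.40, adjusted p = 0.0424), and the mean in 6WP was 17.6% of AM and 47.4% of WT. These falls depended on 1 library: the log2 fold change against WT was -1.08 with both 6WP libraries, -2.14 without 6WP replicate 1 and -0.50 without 6WP replicate 2, and against AM it was -2.51, -3.56 and -1.94. Of its exonic bases, 11.1% overlap the opposite-strand gene CORO1A-AS1, and 3.28% of its 100-base windows recur in another locus. The strand setting of the counting is not given in the sources used here, so reads of these stretches cannot be assigned with certainty.

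CORO1A is best known in leukocytes, so leukocyte markers were read beside it. All 12 were under 1 CPM in every library, PTPRC, CD3D, CD3E, TYROBP and CD74 had 0 counts, and the sum of the list was lowest in AM (0.861 to 0.913 CPM, against 1.25 to 1.33 CPM in WT and 1.13 to 1.74 CPM in 6WP), where CORO1A was highest. Among 5 other coronins, CORO1B was higher (0.69, adjusted p = 0.0304) and CORO2A lower (-1.21, adjusted p = 0.0104) in AM than in WT. CORO2A was also higher in 6WP than in AM (0.75, adjusted p = 0.0395), the only other coronin called in that comparison and opposite in sign to CORO1A. The ubiquitous CORO1C was at 140, 151 and 122 CPM and was not called. Of 10 genes tested for the Arp2/3 complex, to which coronins bind, and its partner CTTN, 3 were lower in 6WP than in AM. These were the subunits ARPC3 (-0.44), ARPC5 (-0.48) and ARPC5L (-0.38). In that comparison 9.68% of all tested genes were called lower. ARPC3 was also higher in AM than in WT (0.61, adjusted p = 0.00985).

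ANXA6, at chromosome 5 (151100706 to 151157815, minus strand), was an abundant transcript in the 84.8th percentile of the tested genes. It was at 100.4 and 99.2 CPM in WT, 144 and 141 CPM in AM, and 58.0 and 67.8 CPM in 6WP libraries. The groups did not overlap and replicates lay close together. AM was 1.43-fold above WT (log2 fold change 0.51, SE 0.11, adjusted p = 0.0219), and the mean in 6WP was 44.2% of AM and 63.0% of WT. Of 8 other annexins tested, only ANXA7 was called in any of the 3 comparisons (0.41 in AM against WT, adjusted p = 0.0342).

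ATP1B3, at chromosome 3 (141876124 to 141926549, plus strand), followed almost the same course at a similar level. Its values were 114 and 108 CPM in WT, 161 and 158 CPM in AM, and 76.9 and 81.6 CPM in 6WP libraries. Again no groups overlapped. AM was 1.43-fold above WT (log2 fold change 0.52, SE 0.10, adjusted p = 0.0146), and the mean in 6WP was 49.7% of AM and 71.2% of WT. Per kilobase of transcript, ATP1B3 was the most abundant of the 8 genes, with 60.2, 86.4 and 42.9 CPM per kb in WT, AM and 6WP, followed by ANXA6 with 34.6, 49.3 and 21.8 CPM per kb.

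Among the other pump genes, the beta subunit ATP1B1 was lower in 6WP than in AM (-0.49, adjusted p = 0.0364), with means of 92.6, 120 and 85.8 CPM in WT, AM and 6WP. FXYD5, a regulatory subunit, was lower in AM than in WT (-2.23, adjusted p = 0.0117) and higher in 6WP than in AM (1.46, adjusted p = 0.0406).

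LEPREL1 (also named P3H2), at chromosome 3 (189956728 to 190122437, minus strand), was scarce throughout. It was at 4.78 and 5.74 CPM in WT, 1.59 and 1.62 CPM in AM, and 0.796 and 1.23 CPM in 6WP libraries, the last from 22 and 35 counts. WT stood above the rest, and 6WP lay below AM by a smaller step. WT was 3.27-fold above AM (log2 fold change of AM against WT -1.71, SE 0.27, adjusted p = 0.00841). On the log2 scale, 72.1% of the distance from WT to 6WP was already present in AM. The mean in 6WP was 63.2% of AM and 19.3% of WT. Of 10 other genes tested for collagen hydroxylases and their partner proteins, only the lysyl hydroxylase PLOD3 was called (0.60 in AM against WT). The related prolyl 3-hydroxylase genes LEPRE1 (9.45, 10.6 and 10.6 CPM) and LEPREL2 (39.9, 37.6 and 35.6 CPM in WT, AM and 6WP) did not pass the test in any comparison.

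LINC00668, at chromosome 18 (6919496 to 6929966, minus strand), had the largest fall of the 8 genes from WT to 6WP, with rank 8 of 14672. It was at 4.64 and 4.46 CPM in WT, 1.33 and 1.24 CPM in AM, and 0.615 and 0.740 CPM in 6WP libraries, the last from 17 and 21 counts. No groups overlapped. WT was 3.54-fold above AM (log2 fold change of AM against WT -1.82, SE 0.25, adjusted p = 0.00573), and AM held 66.6% of the log2 distance from WT to 6WP. The mean in 6WP was 52.7% of AM and 14.9% of WT. Of its exonic bases, 12.2% overlap an opposite-strand locus, SCML2P1.

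NEDD4L, also on chromosome 18 (58044226 to 58401540, plus strand), was the most tightly measured. It was at 165 and 164 CPM in WT, 119 and 117 CPM in AM, and 67.8 and 69.8 CPM in 6WP libraries. The groups did not overlap, and no replicate pair differed by more than 0.043 on the log2 scale. WT was 1.40-fold above AM (log2 fold change of AM against WT -0.48, SE 0.10, adjusted p = 0.0167). Here AM held 38.3% of the log2 distance, so the larger step was between AM and 6WP, where the mean fell to 58.3% of AM and 41.8% of WT. Of 7 other NEDD4-family ligases tested none was called in any comparison, and NEDD4 itself was at 21.8, 17.9 and 17.8 CPM. Among 8 partners and substrates of NEDD4L, SCNN1A, a subunit of the epithelial sodium channel (-0.43, adjusted p = 0.0474), and YWHAH, a 14-3-3 protein (-0.56, adjusted p = 0.0305), were lower in 6WP than in AM.

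**Figure D2:**
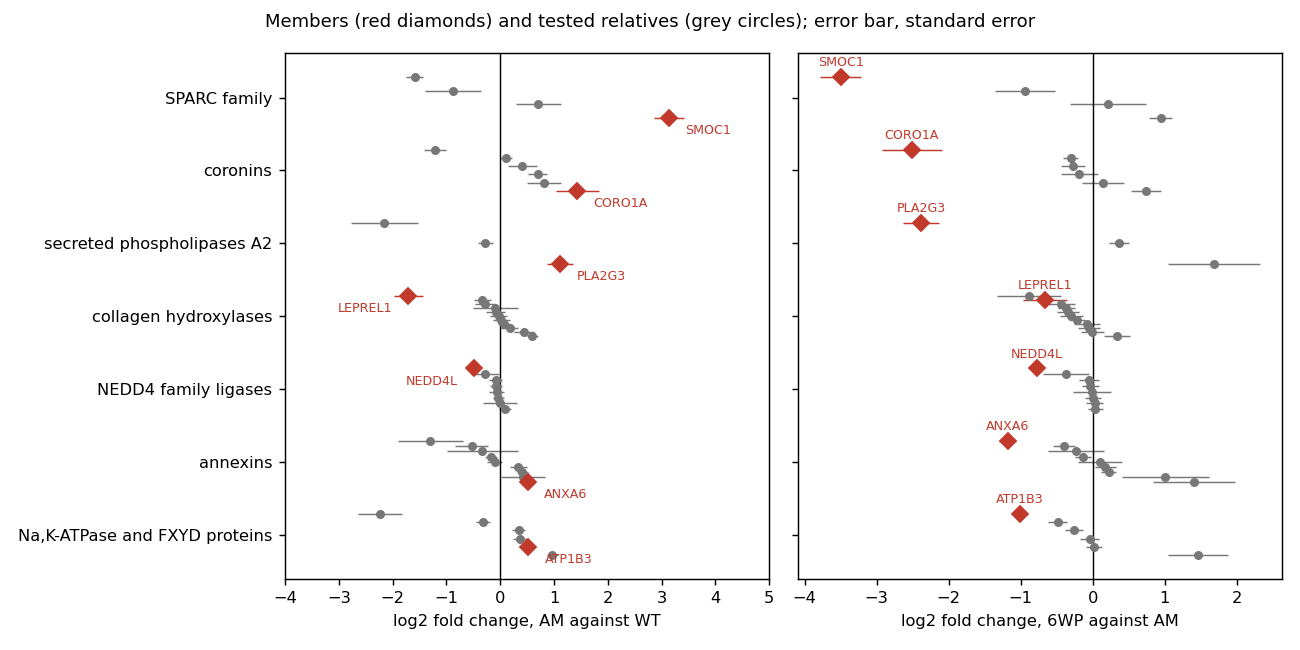
Log2 fold change of each gene beside the tested members of its own family, for AM against WT (left) and 6WP against AM (right), with standard errors from the fit. Red diamonds are the chosen genes and grey circles their relatives. The 6WP levels made the choice. In 6WP against AM, SMOC1 lies at -3.50 and NEDD4L at -0.78 while their relatives lie nearer to or above 0.

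Set side by side, the falls were unequal in their reference. Against AM the log2 fold changes of 6WP were -3.50 for SMOC1 (SE 0.28), -2.51 for CORO1A (SE 0.42), -2.38 for PLA2G3 (SE 0.25), -1.18 for ANXA6 (SE 0.11) and -1.01 for ATP1B3 (SE 0.10), and -0.66 for LEPREL1 (SE 0.31), -0.91 for LINC00668 (SE 0.29) and -0.78 for NEDD4L (SE 0.10). Against WT the order turned, with -2.74 for LINC00668, -2.37 for LEPREL1, -1.27 for PLA2G3, -1.26 for NEDD4L, -1.08 for CORO1A, -0.67 for ANXA6, -0.49 for ATP1B3 and -0.36 for SMOC1. The medians over the 8 genes were -1.09 against AM and -1.17 against WT, beside 0.048 and 0.0135 over all genes. Both comparisons share the 6WP libraries.

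**Figure D3:**
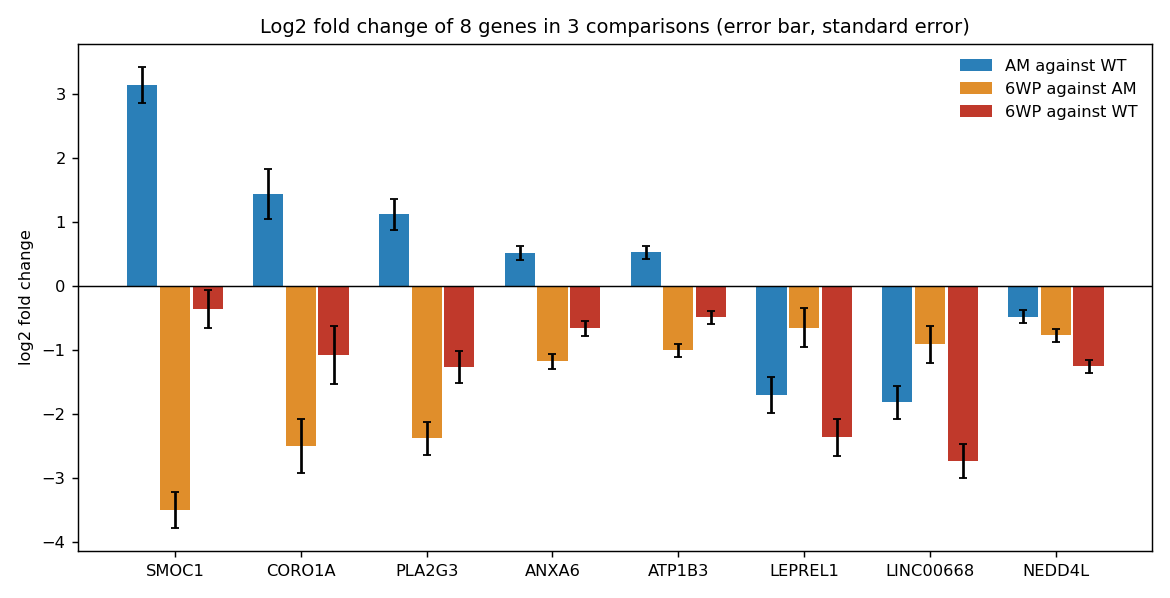
Log2 fold change of the 8 genes in AM against WT (blue), 6WP against AM (orange) and 6WP against WT (red), with standard errors from the fit. The blue bars are above 0 for SMOC1, CORO1A, PLA2G3, ANXA6 and ATP1B3 and below 0 for the other 3 genes, while all orange and red bars lie below 0.

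By the counts, 6 of the 8 genes were called lower in 6WP than in WT (all but SMOC1 and CORO1A), where 1.37% of all genes were called lower and 1.63% higher. In 6WP against AM 6 were called lower (all but LEPREL1 and LINC00668), where 9.68% of all genes were lower and 11.7% higher. Both 6WP libraries lay below both AM libraries in all 8 genes and in 28.5% of all tested genes, and below both WT libraries in 7 of the 8 and in 25.2% of all. As the 6WP levels made the choice, these counts only describe it.

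The ER chaperone list and the sterol genes, outside of which the 8 were picked, had courses of their own. Of the 22 genes on the ER chaperone list, which includes degradation genes, 21 were higher in AM than in WT (median log2 fold change 0.79). All 22 were lower in 6WP than in AM (median -1.42), while 8 were lower in 6WP than in WT. Of 23 sterol genes, 3 were higher in AM than in WT (median 0.28), 19 were lower in 6WP than in AM (-0.93) and 12 lower in 6WP than in WT. Relative to its own mean over the 3 groups, the median of the ER chaperone list ran -0.051, 0.74 and -0.67 in WT, AM and 6WP on the log2 scale. The values for ANXA6 were 0.053, 0.57 and -0.62, and those for ATP1B3 were -0.010, 0.51 and -0.50. LEPREL1 ran 1.32, -0.33 and -0.99, with its peak in WT instead. Whether the 8 genes answer to the same controls as the genes on the ER chaperone list was not tested.

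**Figure D4:**
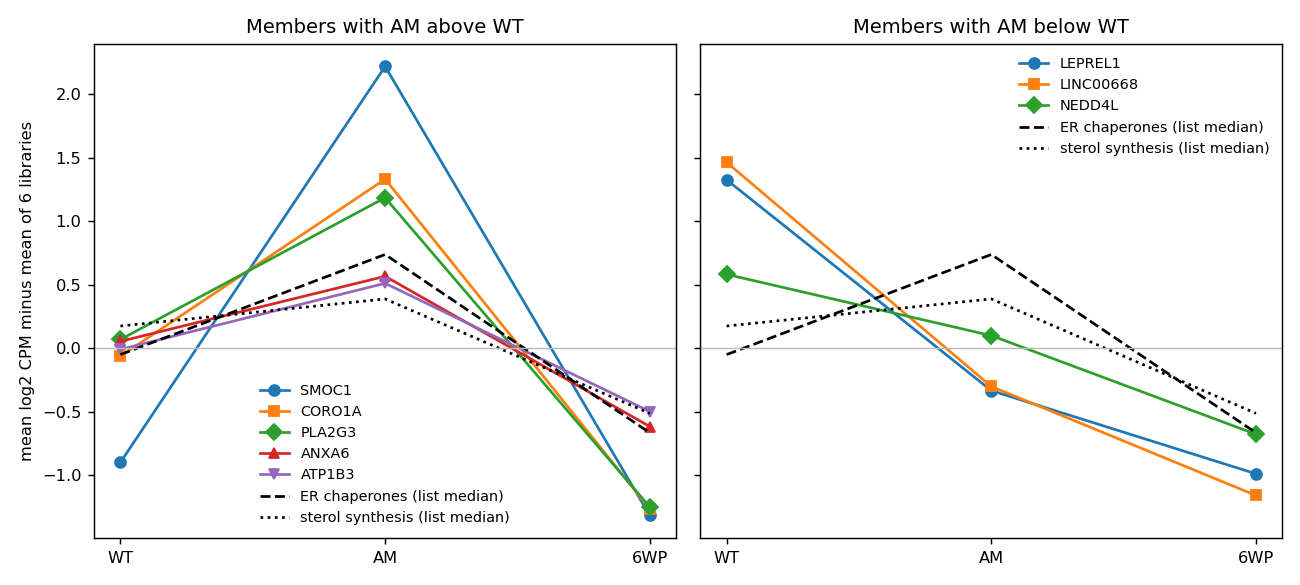
Mean log2 CPM of each gene in WT, AM and 6WP relative to its own mean over the 3 groups, with the genes above WT in AM at left and those below WT in AM at right. Dashed and dotted black lines are the medians of the ER chaperone and sterol lists. At left the genes and the line of the ER chaperone list peak in AM (list median 0.74, ANXA6 0.57), and at right the genes step down (LINC00668 1.46, -0.30 and -1.16).

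The nearest tested genes on either side were read for each of the 8. On chromosome 18, ARHGAP28, 9.76 kb from LINC00668, was also lower than WT in AM (-2.09, adjusted p = 0.00590) and in 6WP (-1.39, adjusted p = 0.0415). LAMA1, a laminin chain on the other side, had -1.76 in AM against WT (adjusted p = 0.0671). CLDN1, a tight-junction claudin 183 kb from LEPREL1, was lower than WT in AM (-2.77, adjusted p = 0.0103) and in 6WP (-2.63, adjusted p = 0.0312). From AM to 6WP the log2 fold changes were 0.70 for ARHGAP28 and 0.15 for CLDN1, beside -0.91 for LINC00668 and -0.66 for LEPREL1. None of these genes was called in that comparison. CLDN1 was scarce, with means of 2.45, 0.362 and 0.390 CPM in WT, AM and 6WP. LAMA1 was scarcer still in each group (0.653, 0.182 and 0.161 CPM). For ATP1B3 the near neighbour TFDP2, a partner of E2F factors, moved in the opposite direction, lower in AM than in WT (-0.84, adjusted p = 0.00759) and higher in 6WP than in AM (0.92, adjusted p = 0.00505). MALT1, a signalling protease gene 269.9 kb from NEDD4L, was higher in AM than in WT (0.45) and lower in 6WP than in AM (-0.74). The tested neighbours of SMOC1, CORO1A, PLA2G3 and ANXA6 were not called in any comparison.

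The genes most like the mean standardised course of the 8, by Pearson's r over the 6 libraries, were TULP3 (r = 0.999), PRKDC, the catalytic subunit of DNA-dependent protein kinase (0.997), TRIM5, STAM and KITLG (each 0.995). Their means in WT, AM and 6WP were 68.1, 74.9 and 46.9 CPM for TULP3, 760, 819 and 494 CPM for PRKDC, and 18.0, 19.9 and 7.79 CPM for TRIM5. That course averages genes with 2 different orders. Of the 14664 other genes tested, 178 had an r above 0.95.

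The calls of AM against WT rest on few libraries. Leaving out either 6WP library kept all 8, but without any 1 of WT replicate 1, WT replicate 2, AM replicate 1 or AM replicate 2 only SMOC1 was called, while the sign of all 8 genes stayed the same.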

How the data were processed

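RNA was taken from 22Rv1 cells in 3 groups of 2 libraries, grouped by the labels. The authors deposited whole-number read counts for each gene symbol, not normalized and not pooled over replicates. The submitters' processing notes name the build hg38, STAR 2.5.3a, Subread featureCounts 1.5.3, StringTie 1.3.3, edgeR 3.22.3 and R 3.5.0, and the strand setting and annotation of the counting are not given in the sources used here. Genes were filtered with filterByExpr, which kept 14672 of 29804, and scaled by TMM. All 6 libraries entered 1 quasi-likelihood fit with no covariate in edgeR 4.0.16 (R 4.3.3, limma 3.58.1), and p-values were two-sided and adjusted over all tested genes by Benjamini-Hochberg at 0.05. CPM are scaled to the counts in tested genes, and each SE is the log2 fold change over the square root of F. Replicates are named as biological in the labels, with no culture or batch given. The 8 genes and all gene lists were chosen with earlier results of these data known. The genes named outside the 8 are tested members of lists of relatives, pathways and markers, the nearest tested neighbours, and the 5 most alike courses. Positions are from GENCODE (GRCh38) and promoters from RefSeq. Other columns of per-sample values not used numbered 0. The script was tested on simulated data. Alternatives were DESeq2 1.42.0 (Wald test, size factors), no filter, a fit to the 2 groups compared, a replicate block and leaving out each library. The result of 1 gene in a list of relatives is not reported here.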

Additional observations from a re-analysis of the deposited data

How the results depend on the processing

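All 8 genes kept their direction in AM against WT in all 11 alternatives, and all 8 kept their calls there with DESeq2's size factors, DESeq2's Wald test, no filter, a fit to only the 2 groups and a replicate block. Leaving out 1 library in turn gave 1 to 5 higher and 0 to 3 lower among the 8 genes, and over all genes 67 to 6654 calls (2593 with all libraries, 6620 in a fit to the 2 groups). The low end came without 1 of the 4 WT and AM libraries, where only SMOC1 was called and the lone library is assumed to vary like the other groups. With these fewer libraries CORO1A reached an adjusted p of at most 0.242 and SMOC1 of at most 0.0442 with edgeR.

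The descriptive falls moved more. For 6WP against WT, 440 genes were called in all, 1124 with DESeq2's Wald test, 894 without a filter and 96 in a fit to the 2 groups, which called 3 of the 8 genes instead of 6. Leaving out a library gave 0 to 3870 genes and 0 to 8 of the 8, with 0 called without WT replicate 1 or 2, and SMOC1 ran from -0.92 to 0.0036. For 6WP against AM, 3131 genes were called, 1309 in a fit to the 2 groups and 116 to 6807 with a library left out, while 4 to 8 of the 8 were called. Without a 6WP library the counts rose in both comparisons. The cause of these shifts was not tested.

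Same-numbered libraries deviated together only weakly (correlations 0.040, 0.087 and -0.021), and the main fit used no pairing. With 2 libraries a group and no culture or batch in the labels, whether the numbers mark pairs is not known. With a replicate block 2485 genes were called in AM against WT, 3069 in 6WP against AM and 393 in 6WP against WT, with 5 of the 8 in place of 6 in 6WP against WT (ATP1B3 was no longer called). The 6WP replicates, the low counts of CORO1A, LEPREL1 and LINC00668, and 2 libraries a group limit the precision.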
